A study of Mus musculus with 8 samples.

Results

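The stretch of mouse chromosome 15 from 90 to 94 Mb (mm10) holds Lrrk2 and its neighbours, and its DNA replication timing was followed in embryonic stem cells. The member genes Lrrk2, Slc2a13, Muc19, Cntn1 and Smgc were chosen by their difference between dTAG and control cells, so every value of that comparison is given as a description, with no test. Muc19 is only a synonym of the Smgc record in the annotation used, so the 5 names are 4 gene records and Muc19 and Smgc share 1 value. The stretch covers 801 of 514245 positions scored every 5 kb in all profiles, and the 4 records are part of 21519 protein-coding genes with a score at their midpoint. Each of 4 profiles, control 1, control 2, dTAG 1 and dTAG 2, was made by the submitters from an early and a late S phase fraction, so 8 samples stand behind them. The series title names YY1, and the treated cells were collected 2 days after addition of dTAG, a compound that directs degradation of a protein carrying its tag. The name under which the scores were deposited reads YY1 depletion. Culture and treatment are given only by reference to Weintraub et al. The labels used here do not spell out that YY1 carries the tag or whether controls received a vehicle. YY1 itself was not measured. The labels do not state whether replicates came from separate cultures, so the spread between them may be technical. Replicate 1 is the unnumbered set of samples in each group.

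Replication timing is the order in which segments of a chromosome are copied during S phase. Neighbouring origins fire within broad domains, gene-rich active chromatin is usually copied early, and long neuronal genes that are silent in stem cells often lie in late domains. YY1 is a zinc finger protein that binds promoters and enhancers and takes part in the loops between them. Lrrk2 encodes a large kinase with a GTPase domain that phosphorylates Rab proteins and is mutated in inherited Parkinson disease. Slc2a13 encodes a proton-coupled carrier of myo-inositol, Muc19 and Smgc are products of 1 salivary gland mucin locus, and Cntn1 encodes contactin, an adhesion molecule anchored on neurons and their axons.

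The deposited value is a signed score per position, smoothed along the chromosome, and high scores were read as early. The direction is not stated in the sources used here. It was read from 10 stem cell genes, among them Sox2 and Esrrb, whose scores lay between 2.56 and 4.62 in all 4 profiles. In dTAG replicate 1 the title letter and the stated fraction disagreed for 2 samples, and those 10 genes were also above 0 in that profile. The 2 profiles of replicate 1 have a mean score of 0.20 over the genome and the 2 of replicate 2 a mean of -0.20, with the same spread, so dTAG was set against control within each replicate number. The depth behind the scores is unknown, and neighbouring positions share reads through the smoothing.

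The promoters of the member genes and of Kif21a, the neighbour on which the comparison of local maxima turns, are shown because YY1 is known to bind promoters. Each runs 5′ to 3′ from 250 bases before to 50 bases after a RefSeq transcription start (GRCm38.p6), and capitals mark CpG dinucleotides. The Lrrk2 window is chr15:91672974-91673273 on the plus strand and the Smgc window is chr15:91838078-91838377 on the plus strand. The Slc2a13 window is chr15:91573212-91573511 on the minus strand. The window of the first Cntn1 start is chr15:92050915-92051214 on the plus strand, and that of Kif21a is chr15:91049902-91050201 on the minus strand.
Lrrk2: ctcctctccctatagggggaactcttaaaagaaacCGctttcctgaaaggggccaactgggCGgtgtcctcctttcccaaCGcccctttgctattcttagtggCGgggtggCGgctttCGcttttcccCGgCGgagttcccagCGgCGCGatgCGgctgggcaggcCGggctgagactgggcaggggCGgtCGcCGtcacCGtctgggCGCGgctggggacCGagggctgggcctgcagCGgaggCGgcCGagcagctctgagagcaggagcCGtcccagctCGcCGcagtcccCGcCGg
Smgc: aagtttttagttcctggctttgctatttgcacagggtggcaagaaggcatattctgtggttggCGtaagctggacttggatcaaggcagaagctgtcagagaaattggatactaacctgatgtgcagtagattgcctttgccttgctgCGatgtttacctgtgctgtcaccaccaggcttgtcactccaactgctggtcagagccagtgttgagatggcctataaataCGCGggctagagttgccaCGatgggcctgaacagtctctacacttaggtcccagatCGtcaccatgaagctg
Slc2a13: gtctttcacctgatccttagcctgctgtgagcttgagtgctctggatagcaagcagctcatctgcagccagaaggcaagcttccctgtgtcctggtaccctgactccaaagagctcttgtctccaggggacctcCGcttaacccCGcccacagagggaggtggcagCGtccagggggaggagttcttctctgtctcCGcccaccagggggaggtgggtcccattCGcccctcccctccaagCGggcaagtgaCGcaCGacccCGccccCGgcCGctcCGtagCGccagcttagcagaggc
Cntn1: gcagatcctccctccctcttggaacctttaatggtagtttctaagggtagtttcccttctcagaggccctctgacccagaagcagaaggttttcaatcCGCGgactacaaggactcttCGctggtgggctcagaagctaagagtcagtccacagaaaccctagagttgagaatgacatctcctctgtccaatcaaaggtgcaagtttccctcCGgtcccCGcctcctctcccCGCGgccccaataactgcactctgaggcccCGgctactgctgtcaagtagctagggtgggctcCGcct
Kif21a: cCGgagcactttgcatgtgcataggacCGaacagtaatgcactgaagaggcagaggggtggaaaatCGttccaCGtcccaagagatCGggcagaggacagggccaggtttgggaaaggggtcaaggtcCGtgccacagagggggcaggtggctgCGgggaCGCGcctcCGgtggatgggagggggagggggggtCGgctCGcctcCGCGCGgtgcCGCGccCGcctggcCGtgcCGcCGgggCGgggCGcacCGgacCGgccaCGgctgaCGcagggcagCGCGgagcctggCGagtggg
The Lrrk2 promoter holds 28 CpG and the Kif21a promoter 30, against a median of 7 over 32851 mouse promoters of the same length. Fewer CpG were found in 85.8% of all promoters than in that of Lrrk2. Slc2a13 has 13 CpG, the first Cntn1 start 9 and Smgc 6. The motif AANATGGCG, a form of the YY1 site searched on both strands, was in 0 of the 19 promoter windows listed for 14 genes of the stretch and in 2.38% of all promoters. No match says only that these letters are not in these windows.

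All 4 profiles were late across most of the stretch. Around Lrrk2 the score stayed below 0 from 89.745 to 93.07 Mb in control 1, from 89.735 to 93.155 Mb in control 2, from 89.745 to 93.105 Mb in dTAG 1 and from 89.715 to 93.18 Mb in dTAG 2. The late stretch was therefore 3.33 to 3.47 Mb long and had nearly the same borders in control and dTAG cells. The lowest point between 90 and 94 Mb lay in Cpne8, a copine gene, in every profile, with -4.07 in control 1, -5.67 in control 2, -4.28 in dTAG 1 and -5.44 in dTAG 2. To its right the profiles climbed to an early zone over Pphln1 and Prickle1, where the highest score was 2.49 in control 1, 1.48 in control 2, 2.61 in dTAG 1 and 1.67 in dTAG 2.

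**Figure D1:**
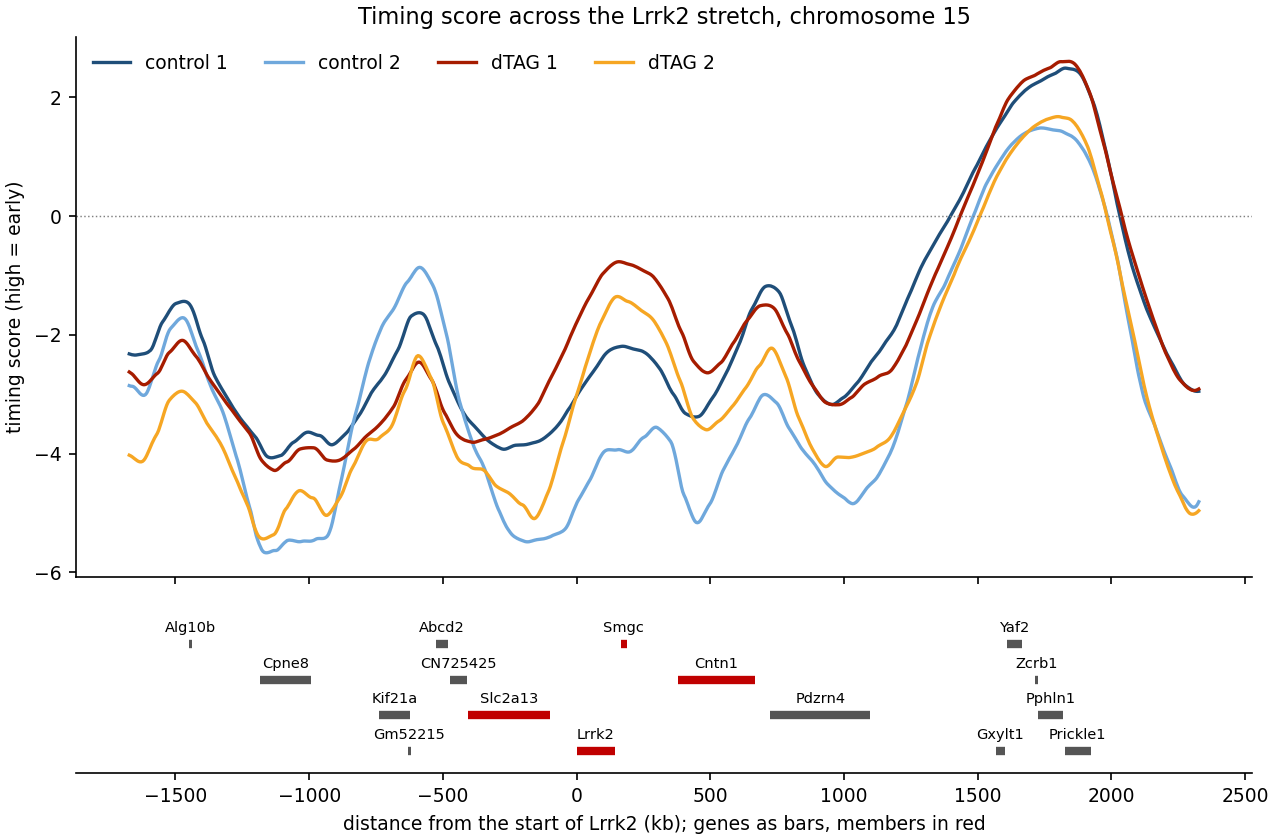
Timing score (vertical axis, high is early) against distance from the start of Lrrk2 in kb for the 4 profiles, with protein-coding genes as bars and the members in red. The 4 curves share their late stretch and the early zone at the right, and the dTAG curves lie above the control curve of the same replicate over Lrrk2 and below it over Kif21a.

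Averaged over all 801 positions the stretch was almost the same in both groups. Its mean score was -1.94 in control 1, -3.03 in control 2, -1.93 in dTAG 1 and -2.86 in dTAG 2. The dTAG minus control difference was 0.02 in replicate 1 and 0.17 in replicate 2, with a mean of 0.09 ± 0.11 (SD, n = 2). Its sign depended on which profiles were kept. The difference was -0.45 without control 2, -0.37 without dTAG 1, 0.63 without control 1 and 0.56 without dTAG 2. With 1 profile left out, the replicate numbers are no longer balanced between the groups. The small mean came from higher and lower segments that lay side by side, as the values of the single genes show.

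Lrrk2 (chr15:91672791-91816124) scored -2.56 in control 1, -4.23 in control 2, -1.17 in dTAG 1 and -2.00 in dTAG 2 at its midpoint. Both dTAG profiles were above both controls, and the gene stayed below 0 in all 4. The group means were -3.39 ± 1.18 in controls and -1.58 ± 0.59 in dTAG cells (SD, n = 2 each). The difference was 1.39 in replicate 1 and 2.23 in replicate 2, with a mean of 1.81. Control 2 minus control 1 was -1.67, a larger gap than the difference in replicate 1, and dTAG 2 minus dTAG 1 was -0.83. Without control 2 the mean difference was 0.98, and without control 1 it was 2.64. Ranked among all scored positions of each profile, the midpoint stood at the percentile 26.9 in control 1 and 39.0 in dTAG 1, and at 8.23 in control 2 and 36.3 in dTAG 2.

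Smgc, which carries the name Muc19 as a synonym (chr15:91838328-91861435), lies just downstream of Lrrk2 and had the largest difference of the members. Its scores were -2.19 in control 1, -3.96 in control 2, -0.78 in dTAG 1 and -1.41 in dTAG 2. The groups did not overlap, with means of -3.07 ± 1.25 in controls and -1.09 ± 0.44 in dTAG cells (SD, n = 2 each). The difference was 1.41 in replicate 1 and 2.55 in replicate 2, with a mean of 1.98 that was 1.10 without control 2. Since Muc19 and Smgc stand for 1 record, this is 1 measurement and not a second one beside it, and the smoothing ties it to Lrrk2.

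Slc2a13 (chr15:91267691-91573261) was the latest of the members. It scored -3.90 in control 1, -5.30 in control 2, -3.58 in dTAG 1 and -4.67 in dTAG 2, so that the groups overlapped. The differences were 0.32 and 0.63, with a mean of 0.48. That mean was -0.22 without control 2, -0.07 without dTAG 1, 1.18 without control 1 and 1.02 without dTAG 2. These values mix the replicate numbers, and control 2 minus control 1 was -1.40 here. The direction was thus the same within both replicate numbers. It changed without control 2 and without dTAG 1, where the replicate numbers are not balanced between the groups.

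Cntn1 (chr15:92051152-92341967) scored -2.97 in control 1, -4.60 in control 2, -2.54 in dTAG 1 and -3.48 in dTAG 2. The groups overlapped here too, since dTAG 2 lay below control 1. The differences were 0.43 and 1.11, with a mean of 0.77, which was -0.046 without control 2, 0.30 without dTAG 1, 1.58 without control 1 and 1.24 without dTAG 2.

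In the following, a gene or position is called earlier where both within-replicate differences were at least 0.5, and later where both were at most -0.5. By this rule 2 of the 4 member records were earlier at their midpoint, against 1.14% of all 21519 genes; the members were chosen on this contrast, so nothing is read from that. Later midpoints made up 2.63% of all genes and included none of the members. Cntn1 lay just outside the rule, with 0.43 in replicate 1. Of the 16 genes of the stretch, 2 had both dTAG profiles above both controls, against 10% of all genes, and 5 had both below, against 8.42%.

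**Figure D2:**
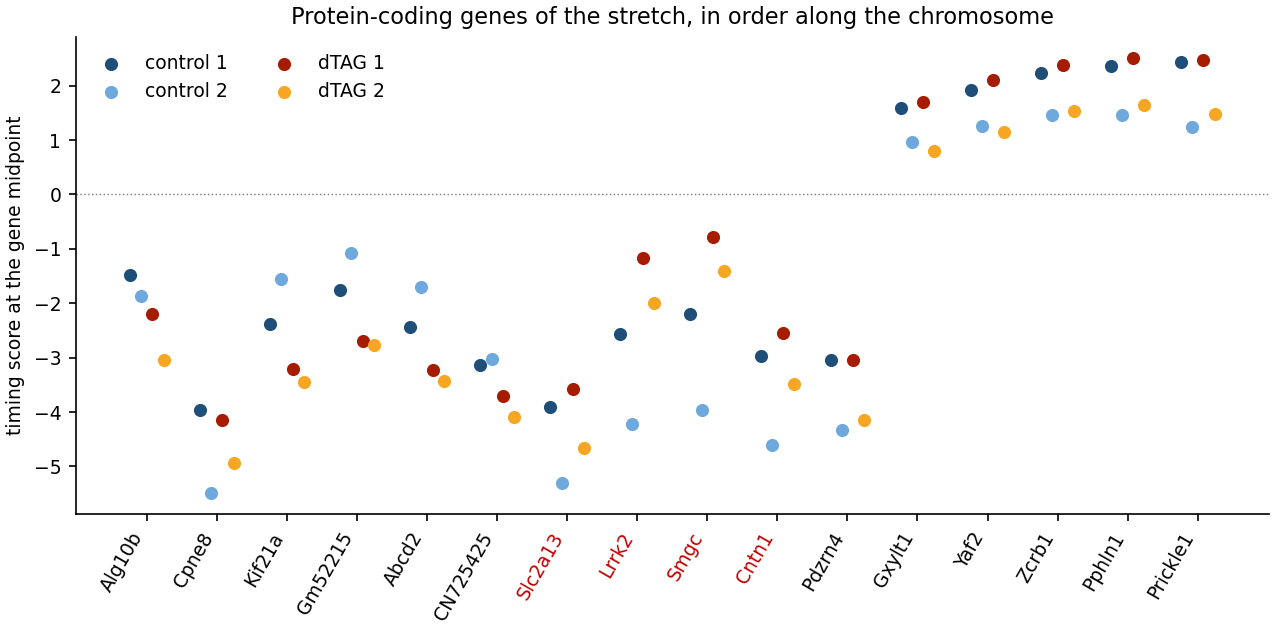
Timing score at the midpoint (vertical axis) of the 16 protein-coding genes of the stretch in chromosomal order, with 1 point per profile and member names in red. For Lrrk2 and Smgc both dTAG points lie above both control points, for Kif21a, Gm52215 and Abcd2 they lie below, and the 5 genes at the right are above 0 in every profile.

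The midpoints hid a gradient within the long genes. The span of the smoothing is not stated, so how finely the ends of a gene can be told apart is unknown. Slc2a13 is read from the minus strand, so its 5′ end faces Lrrk2. At that end the differences were 0.92 and 0.85, whereas at its 3′ end, towards CN725425, they were -0.36 and -0.56. Cntn1 is read from the plus strand, and its 5′ end also faces Lrrk2, with differences of 1.32 and 1.56. At its 3′ end they were -0.11 and 0.61, of opposite signs, unlike those of Slc2a13. Across Lrrk2 the difference grew from 1.24 and 1.83 at the 5′ end to 1.43 and 2.57 at the 3′ end. All 4 member records were earlier at their 5′ ends, including the 2 that were not at their midpoints, against 1.18% of 17273 genes in all with a scored 5′ end, and nothing is read from that count either. The 5′ ends of 4 other genes of the stretch, Alg10b, Kif21a, Gm52215 and CN725425, were later, against 2.56% of all. Along the gene bodies, 29 of 29 positions of Lrrk2, 5 of 5 of Smgc, 24 of 58 of Cntn1 and 7 of 61 of Slc2a13 were earlier, and none was later.

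The earlier segment was 1 unbroken run of 127 positions from 91.54 to 92.17 Mb, a length of 630 kb. It contained Lrrk2 and Smgc whole and the 5′ parts of Slc2a13 and Cntn1. Over the run the mean score was -2.86 in control 1, -4.43 in control 2, -1.64 in dTAG 1 and -2.62 in dTAG 2, and the mean differences were 1.22 and 1.82. The largest difference was 1.45 at 92.02 Mb in replicate 1 and 2.58 at 91.82 Mb, between Lrrk2 and Smgc, in replicate 2. These 127 positions were 15.9% of the stretch, against 2.29% of all positions in the genome. On replicate 2 alone, without replicate 1, 273 positions were earlier and the run was 950 kb long. By a stricter rule, with both dTAG profiles at least 0.5 above both controls, 61 positions were earlier, against 0.548% of all positions.

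On the other side of Slc2a13 the difference had the opposite sign. A later run of 75 positions from 90.87 to 91.24 Mb, 370 kb long, took in Kif21a, Gm52215, Abcd2 and CN725425. Its mean score was -2.41 in control 1, -1.72 in control 2, -3.16 in dTAG 1 and -3.30 in dTAG 2, and the mean differences were -0.75 and -1.58. A smaller later run of 43 positions from 90.05 to 90.26 Mb lay at Alg10b, with mean differences of -0.64 and -1.13. Together the later positions numbered 118, or 14.7% of the stretch, against 3.31% of all positions. By the stricter rule 75 were later, against 1.1% of all positions, and none had both differences at -1 or below. The earlier and the later run were 300 kb apart, and the difference crossed 0 within Slc2a13, at 91.34 Mb in replicate 1 and at 91.335 Mb in replicate 2.

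**Figure D3:**
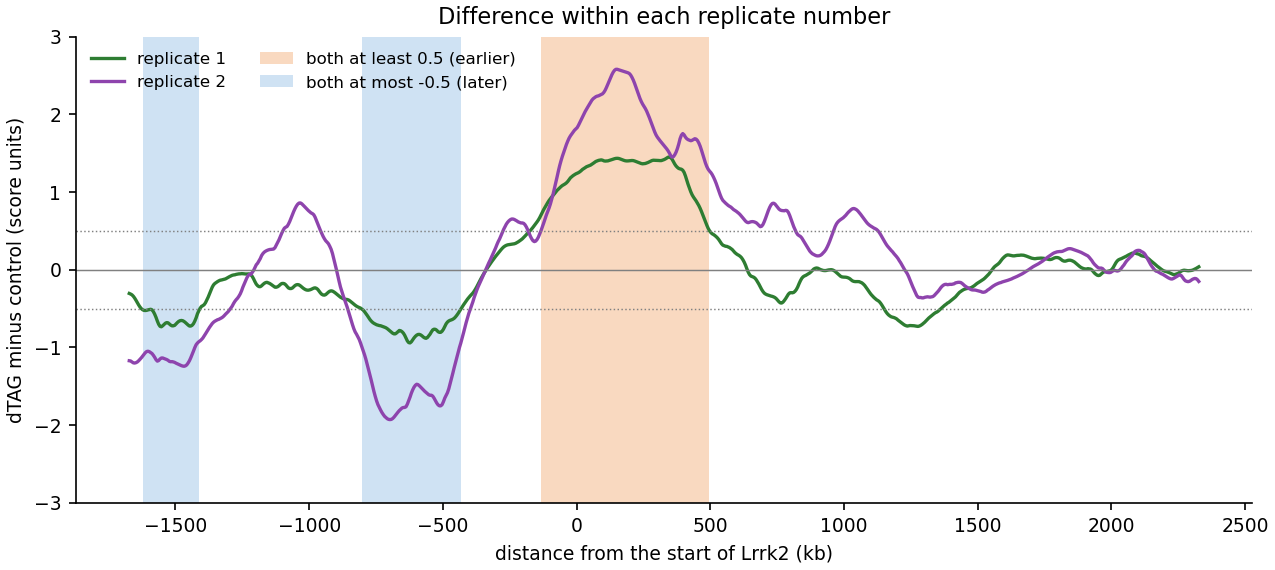
Difference dTAG minus control in score units (vertical axis) against distance from the start of Lrrk2 in kb, within replicate 1 and replicate 2, with shading where both differences are at least 0.5 or at most -0.5. The 2 lines cross 0 at nearly the same place in Slc2a13, and the 630 kb shaded earlier run over Lrrk2 lies next to the 370 kb later run over Kif21a.

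The shape of the 2 difference curves was alike over the stretch. Their Pearson r was 0.86 over 801 positions, while over all positions it was 0.36 and over chromosome 15 it was 0.42. It is given as a description, because neighbouring positions share reads. The member genes, and with them the stretch, were also chosen on this contrast, so nothing is read from the higher r. The sign was the same at 71.9% of positions in the stretch, against 63.4% over chromosome 15 and 60.7% over all positions. To the right of the late stretch none of 164 positions was earlier or later.

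Within the late stretch the score had local maxima, the points copied before their surroundings. The maximum at 91.085 Mb, between Kif21a and Abcd2, scored -1.63 in control 1, -0.86 in control 2, -2.46 in dTAG 1 and -2.36 in dTAG 2. The maximum at 91.83 Mb, between Lrrk2 and Smgc and 745 kb away, scored -2.20 in control 1, -3.93 in control 2, -0.77 in dTAG 1 and -1.36 in dTAG 2. The Kif21a side was thus the earlier of the pair in both controls and the Lrrk2 side in both dTAG profiles. The Lrrk2 side minus the Kif21a side was -0.57 in control 1, -3.07 in control 2, 1.69 in dTAG 1 and 1.0 in dTAG 2. The change was 2.27 in replicate 1 and 4.07 in replicate 2, with a mean of 3.17 that was 1.92 without control 2. As percentiles of each profile the order was the same, the Lrrk2 side minus the Kif21a side being -4.87 in control 1, -33.4 in control 2, 14.3 in dTAG 1 and 8.42 in dTAG 2. The maxima compared were picked after the profiles had been seen.

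A further maximum at 92.395 Mb, between the 3′ end of Cntn1 and Pdzrn4, scored -1.17 in control 1, -3.04 in control 2, -1.51 in dTAG 1 and -2.24 in dTAG 2. Its differences had opposite signs, -0.33 and 0.80. The Lrrk2 side minus this maximum was -1.03 in control 1, -0.89 in control 2, 0.74 in dTAG 1 and 0.88 in dTAG 2. Among these 3 maxima the one at Lrrk2 was the latest in both controls and the earliest in both dTAG profiles. Maxima of the late stretch at 90.2 and 90.655 Mb were not compared. The one at 90.655 Mb, in Cpne8, was later than the Lrrk2 side in both controls, with -3.66 in control 1 and -5.47 in control 2. It was also later in both dTAG profiles. The positions of the 3 compared maxima are those of the mean of all 4 profiles. Each profile's own maximum lay within 20 kb of them, except that of the Lrrk2 side in control 2. There it lay 140 kb to the right, at 91.97 Mb, with -3.56. Taken at each profile's own maxima, the Lrrk2 side minus the Kif21a side was -0.56 in control 1, -2.69 in control 2, 1.69 in dTAG 1 and 1.0 in dTAG 2.

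**Figure D4:**
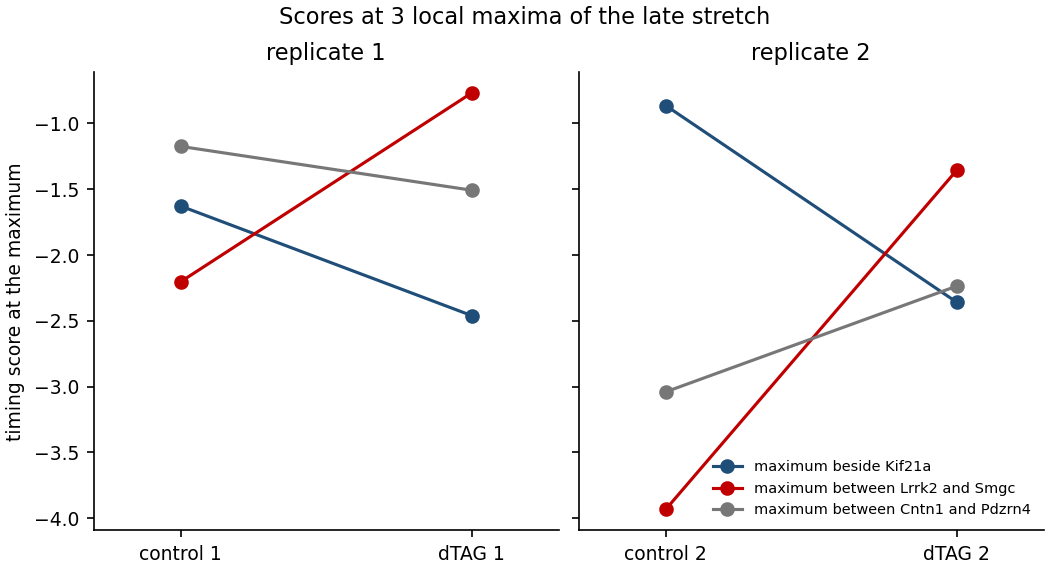
Timing score at 3 local maxima of the late stretch (vertical axis) in control and dTAG, in a panel for each replicate number, with lines joining the profiles of that replicate. The Lrrk2 side is the lowest of the 3 points in control and the highest in dTAG in both panels.

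Of the other 12 genes of the stretch, 5 were later, against 2.63% of all genes, and none was earlier, against 1.14%. The later ones were Alg10b, Kif21a, Gm52215, Abcd2 and CN725425, all to the left of Slc2a13. All but Alg10b lie in the 370 kb later run, where the smoothing ties their values together. Kif21a, a kinesin that walks on microtubules, scored -2.37 in control 1, -1.55 in control 2, -3.20 in dTAG 1 and -3.45 in dTAG 2, with differences of -0.82 and -1.90. Abcd2, a carrier of very long chain fatty acids into peroxisomes, scored -2.44 in control 1, -1.69 in control 2, -3.23 in dTAG 1 and -3.43 in dTAG 2, with differences of -0.79 and -1.74. In both genes each dTAG profile was below both controls. Gm52215, a predicted gene, had differences of -0.94 and -1.69, and CN725425 of -0.56 and -1.06. Alg10b, a glucosyltransferase that completes the sugar chain for N-glycosylation, had differences of -0.72 and -1.17 and a mean of -0.95, which was -0.53 without dTAG 2.

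Cpne8 and Pdzrn4 were late and neither earlier nor later. Cpne8 scored -3.96 in control 1, -5.48 in control 2, -4.15 in dTAG 1 and -4.93 in dTAG 2, with differences of -0.19 and 0.55. Pdzrn4, which encodes a protein with a RING finger and PDZ domains, scored -3.05 in control 1, -4.33 in control 2, -3.05 in dTAG 1 and -4.14 in dTAG 2, with differences of 0.00 and 0.19. The other 5 genes were above 0 in all 4 profiles, with scores of 0.80 to 2.50 and differences of -0.16 to 0.24. They were Gxylt1, an enzyme that adds xylose to Notch, Yaf2, a partner of YY1 and part of Polycomb complexes, Zcrb1 of the minor spliceosome, Pphln1 of the HUSH silencing complex and Prickle1 of planar cell polarity. At Yaf2 the scores were 1.93 in control 1, 1.25 in control 2, 2.11 in dTAG 1 and 1.15 in dTAG 2. Its differences of 0.18 and -0.10 had opposite signs.

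Set against the whole table, the mean differences of Smgc and Lrrk2 were the sixth and seventh highest among 21519 genes. The 5 higher ones were predicted genes on chromosome 8, led by Gm51591 with a mean difference of 2.37, whose replicate 1 difference of 3.20 was the larger one. These 5 had nearly the same scores in each profile, and the smoothing ties Smgc to Lrrk2. The ranks therefore do not count independent genes. Only Lrrk2 itself and Smgc had both differences at least as high as those of Lrrk2. These ranks come from the contrast by which the members were chosen. Of 428 earlier runs in the genome, with a median length of 75 kb, 12 were at least as long as the 630 kb run at Lrrk2, itself included.

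**Figure D5:**
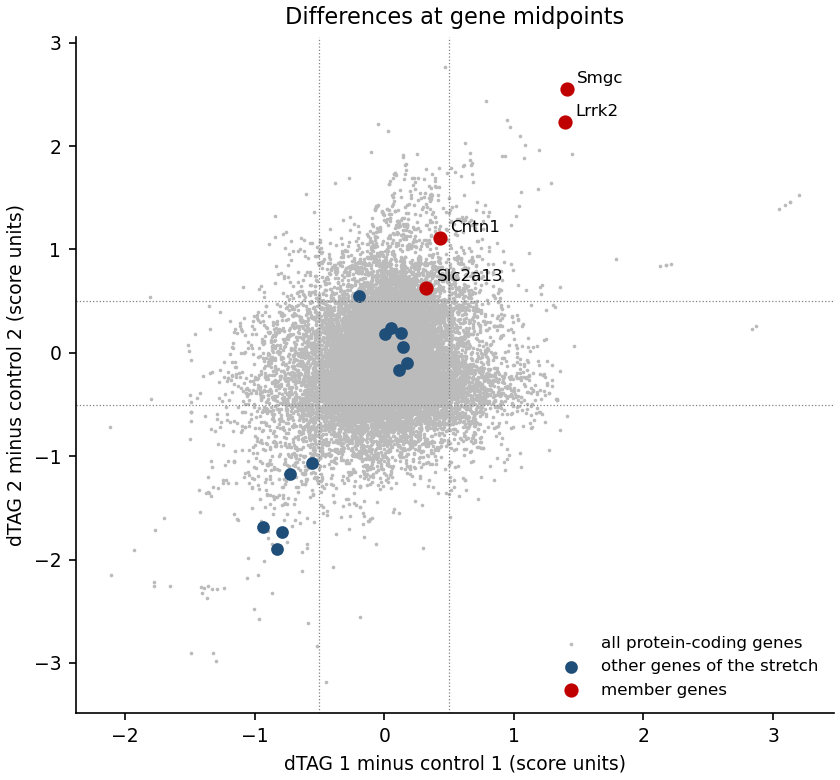
Difference dTAG minus control at gene midpoints in score units, replicate 1 on the horizontal and replicate 2 on the vertical axis, for all 21519 scored protein-coding genes in grey, the members in red and the other genes of the stretch in blue. Lrrk2 and Smgc lie at the upper right edge of the cloud, and the Kif21a group lies at the lower left.

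No gene outside chr15 85-99 Mb had 4 scores close to those of Lrrk2. Of 21384 genes, 0 lay within a Euclidean distance of 0.5 score units over the 4 profiles. The contrast by which Lrrk2 was chosen enters this distance, and the same count was not made for other genes. Nothing is therefore read from the lack of a near match. The nearest was Vmn2r6, a vomeronasal receptor gene on chromosome 3, at 0.833, with differences of 0.68 and 1.73. It was followed by the olfactory receptor genes Olfr808 at 0.927, Olfr809 at 0.947 and Olfr807 at 0.977 on chromosome 10, which lie side by side and share their scores through the smoothing. St18, a zinc finger gene on chromosome 1, followed at 1.02, with differences of 0.66 and 1.01.

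Genes that work with LRRK2 or are mutated in Parkinson disease lay elsewhere in the genome and were mostly early. Of 25 such genes 1 had a control mean below 0, against 4349 of 21519 genes in all, and the median control score was 3.63, against 3.24 over all genes. None was earlier, against 1.14% of all genes, and 2 were later, against 2.63% of all genes. The median difference was 0.00, against -0.02 over all genes. The later genes were Ppm1h, a phosphatase that reverses the phosphorylation of Rab proteins by LRRK2, with differences of -0.91 and -1.07, and Vps13c, a lipid transfer protein mutated in early-onset Parkinson disease, with -0.62 and -1.06. The mean difference of Ppm1h was -0.46 without dTAG 2, -0.55 without control 1 and -1.52 without dTAG 1, and that of Vps13c was -0.48 without dTAG 2.

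Contactins and their partners were mostly late like Cntn1, with control means below 0 in 10 of 14 genes, against 4349 of 21519 in all. Their median control score was -3.66, against 3.24 over all genes. None was earlier, against 1.14% of all genes, and 1 was later, against 2.63%. The median difference was -0.04. The later one was Nrcam, a neuronal adhesion molecule, with -1.13 and -1.62 and a control mean of 0.83. Cntn5 had the highest mean difference, with -0.05 and 0.95. Of 11 sugar and polyol carriers related to Slc2a13 none was earlier or later, against the same shares of all genes. Their median difference was -0.12. Their extremes were Slc2a2, a liver glucose carrier, with 0.61 and 0.10, and Slc2a5, a fructose carrier, with -0.42 and -0.48. Of 10 mucins none was earlier or later either, with a median difference of 0.05. Their extremes were Muc5b with 0.28 and 0.46 and Muc15 with -0.43 and -0.32. With lists this short and shares this low, nothing is read from the counts of earlier and later genes.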

How the data were processed

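Per the labels' protocols, cells received a 2 h pulse of BrdU, and anti-BrdU antibody pulled down DNA from 40000 sorted cells of each S phase fraction for sequencing. Bowtie2, SAMtools, bedtools and mm10 stand in the submitters' processing notes, their versions not given in the sources used here. What the authors deposited is 1 score per 5 kb position and profile, with Loess smoothing and quantile normalization named in the file name, and neither formula nor log base given. The sorted scores of control and dTAG differed by at most 5.16e-05 in replicate 1 and 0.000114 in replicate 2, and those of control 1 matched the sign-turned scores of control 2 to within 0.000134, so scores of different replicate numbers follow mirrored distributions. The file name also reads 400k, and the meaning of this is not stated. In 4 positions only some profiles had a score, and these were left out.

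Groups came from the sample descriptions. Each gene took the score nearest its midpoint, with positions and promoters from RefSeq GRCm38.p6, which mm10 is built on. A further 377 protein-coding genes had no score. The members and lists were chosen with earlier results of these data known. Named were the members, the other protein-coding genes of the stretch, the extremes and the called genes of each list, and the 5 nearest patterns. A gene that this rule names is not reported here. Local maxima were the highest points within 100 kb on either side of the mean of all 4 profiles. No test was run. Thresholds, scalings and left-out profiles were tried as alternatives, with Python 3.11.15, numpy 2.4.6, pandas 2.3.3 and matplotlib 3.10.9, and the counting of runs was checked on simulated data.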

Additional observations from a re-analysis of the deposited data

How the results depend on the processing

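Of 77 alternatives run, 54 left a value within its spread or a count within 1.5 times, 18 moved it and 5 reversed its sign. For a difference, the spread is the SD of the 2 within-replicate differences. A value whose replicates disagree more therefore passes more easily, and the tally is not a measure of stability. Centring each profile on its median could not change a difference. Control and dTAG had the same median, 0.24 in replicate 1 and -0.24 in replicate 2. Centring on chromosome means could not change the order of the maxima, since both lie on chromosome 15. These settings count among the 54, and nothing is read from them. The Lrrk2 difference was 1.83 with each chromosome centred on its mean and 1.81 with all profiles given 1 distribution. Leaving out 1 profile at a time gave -0.45 to 0.63 for the mean of the stretch (-0.45 without control 2 and -0.37 without dTAG 1 reversed it), 0.98 to 2.64 for Lrrk2, 1.10 to 2.86 for Smgc, -0.22 to 1.18 for Slc2a13 (-0.22 without control 2 and -0.07 without dTAG 1 reversed it) and -0.046 to 1.58 for Cntn1, reversed at -0.046 without control 2. For the change in order of the Lrrk2 and Kif21a maxima the range was 1.92 to 4.41, and at each profile's own maxima, an alternative added after seeing the data like those with 1 replicate number, it was 2.97. Leaving out 1 profile sets unequal numbers of replicate 1 and replicate 2 profiles against each other. With 1 replicate number at a time, 135 to 273 positions were earlier in place of 127, and the run was 670 to 950 kb long in place of 630. Requiring both dTAG profiles to lie beyond both controls by at least 0.5 left 61 earlier and 75 later positions. Later positions numbered 182 in place of 118 with differences of at least 0.25 and 0 with differences of at least 1. Over the genome 1158 genes were earlier at 0.25 and 17 at 1, in place of 246. The lowest point of the stretch, at 90.52 Mb on average, was at 90.56 Mb as a 200 kb running mean. The cause of these differences was not tested. A paired test was left out by choice, like every other test, since the members were chosen on this contrast. The differences paired by replicate number are given as values instead. With 2 profiles a group and an unknown depth, small differences cannot be told from the spread between replicates.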

Other observations

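Of the 428 runs of earlier positions in the genome, 15 (3.50%) had a run of later positions within 300 kb. That is the distance between the runs at Lrrk2 and Kif21a, so the run at Lrrk2 is among the 15 by construction. This distance was taken from the pair at Lrrk2 after its values were seen, and the share is a description with no test. Later runs numbered 481 in the genome.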
